A study of Mus musculus with 70 samples.

Results

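The cerebellar nuclei (CBN) lie in the white matter beneath the cerebellar cortex, and RNA punched from them was compared with RNA punched from 4 lobules of that cortex. Of the 70 libraries in the series, 18 were used: 3 from CBN, and 15 from the lobules, namely 4 from central lobule II (CENT2), 4 from culmen lobules IV-V (CUL4,5), 3 from uvula (IX) (UVU) and 4 from flocculus (FL). The libraries were chosen by the region named in their labels and not by any measured value, and the 4 lobules were given equal weight, so that a region with more libraries did not count for more. All 18 came from untreated C57BL/6 male mice (C57BL/6NTac in the study's methods) at postnatal day 56 (P56), with no engineered allele. Regions were punched from frozen coronal sections, and each library was made from pieces pooled from several mice. The spread given here is therefore between pools and not between single animals, and p-values measure only that spread. By the study's count of adult mice, pools of different regions must have shared mice. The labels do not say which pools did, and the main test treated all libraries as independent.

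The nuclei are the main output of the cerebellum. Their large projection neurons use glutamate, loaded into vesicles by the transporter encoded by Slc17a6, and fire at high rates under steady inhibition from Purkinje cells. Other nuclear neurons use GABA or glycine, and the tissue is crossed by myelinated axons. The cortex around them is built from granule cells, Purkinje cells, a few kinds of inhibitory interneuron and Bergmann glia. A punch holds all cells within its reach, and in such bulk RNA fewer cells of a type and less RNA per cell cannot be told apart.

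The 18 libraries were of similar depth, with 15621455 to 18038881 estimated counts in CBN and 13409041 to 19070652 in the lobules, and each was closest by correlation to another library of its own region. Mitochondrial transcripts made up 9.88% to 12% of the TPM, a level scaled by transcript length and library size, in CBN and 6.16% to 10.1% in the lobules; their part in the results was not tested. Several libraries stood apart in markers of tissue outside the labelled region. CBN replicate 1 was highest in choroid plexus genes and hindbrain Hox genes, CBN replicates 2 and 3 held noradrenergic neuron genes that were low in replicate 1, CENT2 replicates 1 and 2 held the serotonin neuron genes Tph2 (146 and 65.02 TPM) and Slc6a4 (78.4 and 46.9 TPM), and UVU replicate 1 and FL replicates 1 and 2 held choroid plexus genes. Some results that rest on these libraries are given with and without them. For others, Ttr, Slc6a5 and Glra1 among them, only the levels of the CBN libraries are given one by one. Serial numbers in the labels fall into 4 runs; the study collected tissue in batches, but the labels do not tie these numbers to them. The CBN libraries were in runs 1, 3 and 4. Of 90 genes named here and called, 82 had the same sign of difference between CBN and the lobules within all 3 runs, and the others (Lum, Dbh, Isl1, Gabre, Gabrq, Slc18a2, Gal and Calca) are given with their CBN libraries one by one. The named genes were picked by their change in these same libraries. Where CBN and the lobules do not overlap in TPM, the sign within a run is fixed. The count is therefore no independent test of a run effect.

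A gene was called higher or lower in CBN at an adjusted p under 0.05 and a change of more than 2-fold, that is a log2 fold change beyond 1 in size, in edgeR's quasi-likelihood test with Benjamini-Hochberg adjustment over all 16303 genes tested. Of these, 1765 (10.8%) were called higher and 1109 (6.8%) lower in CBN than in the mean of the lobules, 17.6% in all, and the median log2 fold change was 0.02. That mean was taken on the log scale, so a lobule near 0 lowers it strongly. A fold change can then exceed the ratio of mean TPM, as for Ttr below. A called gene need not differ 2-fold in mean TPM. In TPM, which is scaled per transcript length and per library, 1027 genes (6.3%) were above every lobule library in every CBN library, and 3449 (21.2%) were below. The counts of each gene list below are to be read beside these shares of all genes. Of the 2874 called genes, 1447 did not overlap between CBN and the lobules, 617 of them higher and 830 lower. A test on log2 TPM with limma (pseudocount 0.5) shifted the median of all genes by over 0.1, to -0.17. Of 16745 genes tested it called 946 higher and 1314 lower, so that 41.9% of its calls were higher against 61.4% by edgeR. Where the counts of a list differ, those of limma are given beside them. The shares of 10.8% and 6.8% set beside list counts are edgeR's and do not apply to the limma counts. Adjusted p-values below are from edgeR's quasi-likelihood test unless another is named. That test gives no standard error. SE here is the size of the log2 fold change divided by the square root of the test's F value.

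**Figure D1:**
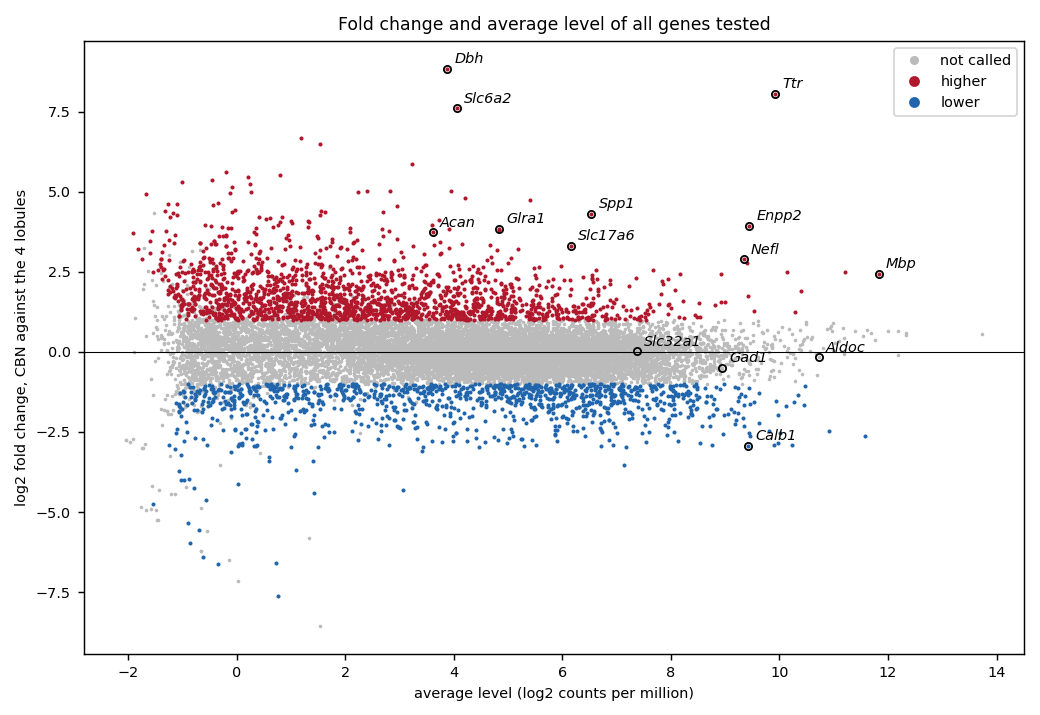
Log2 fold change of CBN against the mean of the 4 lobules (y axis) over the average level in log2 CPM (x axis) for the 16303 genes tested. Red points are the 1765 genes called higher, blue points the 1109 called lower and grey points the rest; Ttr, Dbh and Slc6a2 sit highest and Calb1 is the lowest of the labelled genes.

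Slc17a6, which encodes the vesicular glutamate transporter of the nuclear projection neurons, was at 112, 94.2 and 96.7 TPM in the 3 CBN libraries, in order of replicate. It ran from 0.233 through a median of 12.6 to 60.8 TPM in the 15 lobule libraries. Every CBN library was above every lobule library, and within the lobules FL (27.3 to 60.8 TPM) was above most vermal libraries (0.233 to 29.4 TPM). The gene (ENSMUSG00000030500.6, chr7:51622006-51671119 in GRCm38) was called higher (log2 fold change 3.31, SE 0.59, adjusted p = 0.000121, edgeR). Against FL alone the log2 fold change was 1.19 (adjusted p = 0.263, edgeR) and the gene was not called.

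Slc17a7, which encodes the other main vesicular glutamate transporter and is the one used by granule cells, went the other way. It was at 71.1, 102 and 106 TPM in CBN and at 338 to 548 TPM with a median of 485 in the lobules. All 3 CBN libraries lay below all lobule libraries (log2 fold change -2.11, SE 0.16, adjusted p = 2.05e-08, edgeR). The level of Slc17a6 was close to that of Slc17a7 in CBN, whereas in each of the 4 lobules the mean of Slc17a7 (441, 495, 422 and 496 TPM in CENT2, CUL4,5, UVU and FL) was many times that of Slc17a6 (9.83, 12.7, 5.06 and 45.8 TPM). Slc32a1, which loads GABA and glycine into vesicles, was at 98.7, 121 and 92.4 TPM in CBN, inside the range of the lobules (84.5 to 167 TPM with a median of 119), and was not called. Of 7 vesicular transporters tested, 3 were called higher and 1 lower (limma 2 and 1), with a median log2 fold change of 0.96 against 0.02 over all genes, although their summed TPM was lower in CBN. The other 2 higher were the monoamine transporters Slc18a2 (2.94, 39.6 and 20.6 TPM, described below with the noradrenergic genes) and Slc18a1 (1.35, 0.969 and 0.846 TPM), the latter near 1 TPM and overlapping the lobules (0.168 to 2.31 TPM with a median of 0.649).

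The sequences before 3 gene starts are shown, because these genes carry the contrast: Slc17a6 for nuclear glutamate neurons, Acan for the perineuronal net and Gabra6 for granule cells. Each is the 250 bases upstream of the RefSeq start in GRCm38.p6, written 5′ to 3′ on the gene's strand, at chr7:51621580-51621829, strand +; chr7:79052976-79053225, strand +; and chr11:42321073-42321322, strand -. None of the 3 windows overlaps an annotated exon. Capitals mark the GC box (GGGCGG, or CCGCCC on the opposite strand), a motif found in 33% of 27025 such windows on either strand, and the TATA box (TATAAA, or TTTATA) is found in 13%.
Slc17a6: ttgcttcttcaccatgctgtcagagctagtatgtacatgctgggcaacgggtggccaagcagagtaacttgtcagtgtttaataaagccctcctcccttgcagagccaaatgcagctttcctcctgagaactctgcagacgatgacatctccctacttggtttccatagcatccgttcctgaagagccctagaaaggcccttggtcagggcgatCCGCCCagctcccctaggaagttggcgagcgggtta
Acan: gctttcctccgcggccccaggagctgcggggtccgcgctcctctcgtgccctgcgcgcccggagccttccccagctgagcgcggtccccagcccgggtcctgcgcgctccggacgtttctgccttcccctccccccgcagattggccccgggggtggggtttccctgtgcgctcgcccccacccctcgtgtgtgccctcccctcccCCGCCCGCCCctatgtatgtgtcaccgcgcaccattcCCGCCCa
Gabra6: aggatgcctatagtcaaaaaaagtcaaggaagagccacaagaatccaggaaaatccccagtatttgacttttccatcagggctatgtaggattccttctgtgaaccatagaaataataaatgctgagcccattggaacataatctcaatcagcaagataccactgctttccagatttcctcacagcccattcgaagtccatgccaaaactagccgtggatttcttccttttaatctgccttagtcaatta
The Slc17a6 window held 1 GC box, 36 bases before the start, and the Acan window held 3, the nearest 7 bases before it. The Gabra6 window held none, and none of the 3 held a TATA box. The matches describe letters in these windows and not bound factors.

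Genes used to mark nuclear glutamate neurons were mostly higher in CBN. Of 14 tested, 10 were called higher and 0 lower (limma 8 and 0), with a median log2 fold change of 1.45, and 4 were above every lobule library in every CBN library. Spp1, which encodes the secreted phosphoprotein osteopontin, was at 405, 421 and 393 TPM in CBN. It was at 4.59 to 22.5 TPM in the vermal lobules and 69.7 to 378 TPM in FL. CBN was above all of them, by little over the highest FL library and by a wide margin over the vermis (log2 fold change 4.31, SE 0.3, adjusted p = 7.34e-09, edgeR). Meis2, a homeobox transcription factor, was at 116, 86.02 and 71.8 TPM and overlapped the lobules in 1 library, FL replicate 4 at 84.7 TPM (log2 fold change 2.92, SE 0.58). Pou3f1, a POU-domain transcription factor, was low but separated, at 3.67, 6.62 and 7.92 TPM against 0.364 to 3.33 TPM with a median of 1.14 (2.66, SE 0.26).

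Not all of these markers set the punch apart. Lhx9 (2.21, 1.596 and 2.33 TPM) and Lhx2 (0.781, 1.93 and 1.11 TPM), LIM-homeobox factors of the nuclei, were near 1 to 2 TPM, overlapped the lobules and were not called, and Tbr1 (0.799, 0.924 and 0.985 TPM), a T-box factor of the medial nucleus, was under 1 TPM in every CBN library. Irx3, an Iroquois homeobox factor, was at 12.1, 14.6 and 16.9 TPM and passed the test of significance but not the 2-fold limit (log2 fold change 0.80, SE 0.15, adjusted p = 0.000267, edgeR); UVU was above CBN. The summed level of the list was 1439, 1439 and 1321 TPM in CBN, 319 to 473 TPM in CENT2, 399 to 462 TPM in UVU, 301 to 383 TPM in CUL4,5 and 643 to 1236 TPM in FL.

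**Figure D2:**
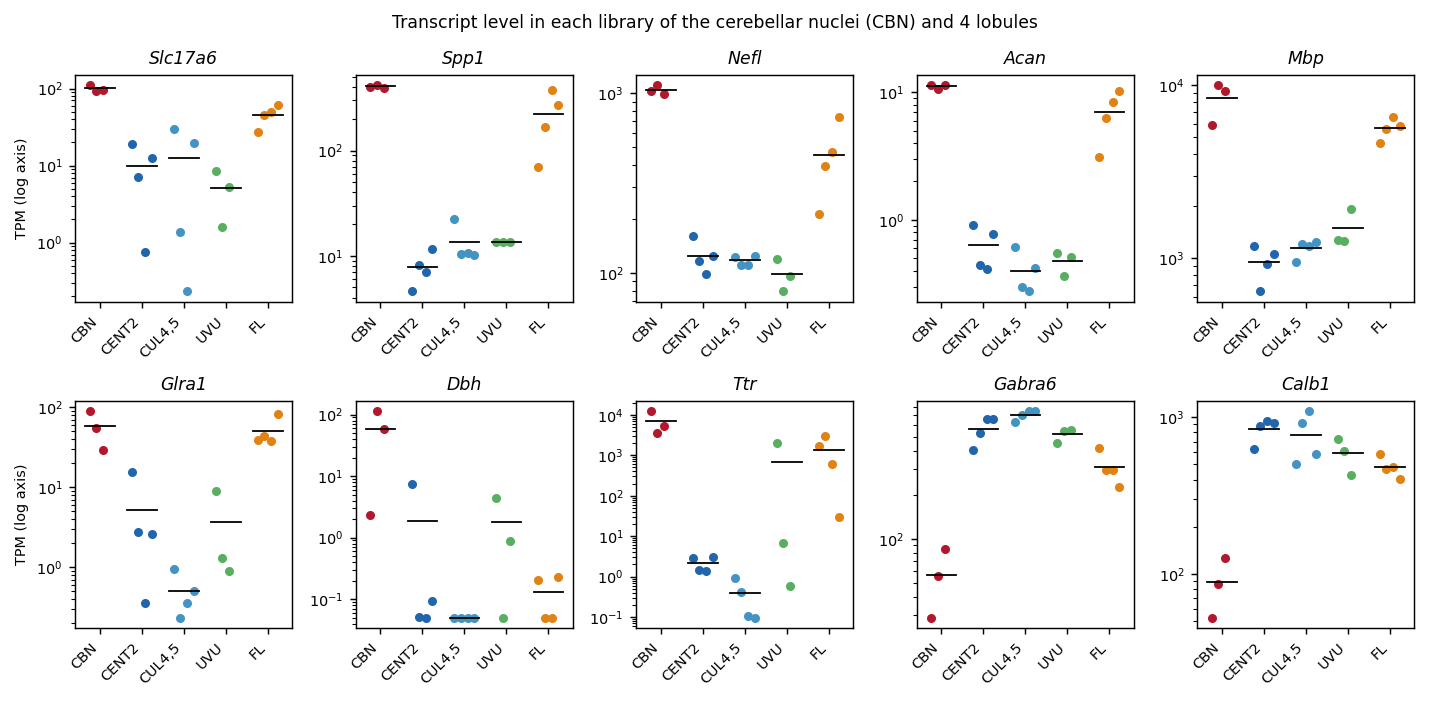
TPM on a log axis for 10 genes in each library of CBN, CENT2, CUL4,5, UVU and FL, 1 point a library in order of replicate, with black bars at the group mean and libraries under 0.05 TPM drawn at 0.05. Slc17a6, Spp1, Nefl, Acan and Ttr lie above every lobule library in CBN, Gabra6 and Calb1 lie below every one, FL lies between CBN and the vermis for most genes, and Dbh is highest in CBN replicates 2 and 3.

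Inhibitory neuron genes moved in both directions. Of 12 genes of GABA and glycine neurons, 3 were called higher and 2 lower (limma 2 and 3), where 10.8% and 6.8% of all genes were. The median log2 fold change of the list was -0.09. Slc6a5, the glycine transporter of glycinergic neurons, was at 58.7, 30.95 and 24.8 TPM in CBN. In the lobules it was at 5.33 to 38.9 TPM with a median of 11.4, and the highest FL library lay above CBN replicates 2 and 3 (log2 fold change 1.78, SE 0.19, adjusted p = 7.28e-07, edgeR). Sox14, a transcription factor of the small GABA neurons that project to the inferior olive, was at 1.6, 2.75 and 2.67 TPM in CBN. It was at or below 0.85 TPM in 14 of the 15 lobule libraries and at 1.81 TPM in CENT2 replicate 1, which overlapped CBN replicate 1; it was called higher, with a mean TPM 9.03 times that of the lobules.

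Lhx1, a LIM-homeobox factor of Purkinje cells as well as of other inhibitory lineages, was lower. It was at 9.35, 9.39 and 10.1 TPM in CBN against 21.9 to 66.2 TPM with a median of 52.4, with no overlap (log2 fold change -2.30, SE 0.16, adjusted p = 6.29e-09, edgeR). Nos1, the neuronal nitric oxide synthase of granule and basket cells, was at 15.7, 16.2 and 16.3 TPM against 18.2 to 83.3 TPM with a median of 63.05, and every CBN library was again below (-1.38, SE 0.086). Gad1, which makes GABA, was at 291, 293 and 291 TPM in CBN, inside the lobule range of 244 to 675 TPM with a median of 553, and its log2 fold change of -0.49 (SE 0.08) did not reach the limit; the vermal lobules (446 to 675 TPM) were all above CBN and FL (244 to 312 TPM) lay around it.

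Receptors for these transmitters also differed by subunit. Of 20 GABA-A and glycine receptor genes, 6 were called higher and 3 lower (limma 5 and 5), with a median log2 fold change of 0.38. Their summed level went the other way, at 880, 852 and 913 TPM in CBN against 1185 to 2238 TPM in the lobules. Glra1, the adult glycine receptor α subunit of hindbrain and spinal cord, was at 89.1, 54.9 and 29.3 TPM in CBN, at 0.234 to 15.3 TPM in the vermal lobules and at 37.9 to 81.96 TPM in FL. CBN lay above the vermis in every library but overlapped FL (log2 fold change 3.84, SE 0.52, adjusted p = 7.12e-06, edgeR; against FL alone 0.26). The obligatory partner Glrb was high everywhere and differed little (201, 199 and 181 TPM against 142 to 189.9 TPM with a median of 164, log2 fold change 0.52, SE 0.089).

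Gabra6 and Gabrd, the α6 and δ subunits that granule cells use for tonic inhibition, were among the largest downward changes in CBN against the lobules. Gabra6 was at 28.7, 55.7 and 84.8 TPM in CBN against 227 to 749 TPM with a median of 548 (log2 fold change -2.91, SE 0.29, adjusted p = 2.39e-07, edgeR), and Gabrd at 12.2, 17.3 and 29.4 TPM against 78.4 to 236 TPM with a median of 201 (-2.97, SE 0.24). Neither overlapped. Gabre and Gabrq, the ε and θ subunits that monoaminergic neurons express, were at 0.473, 6.63 and 2.44 TPM and 0.41, 12.2 and 5.04 TPM in CBN, with replicate 1 inside the lobule range for both. Gabrq was no longer called without CBN replicate 2 (log2 fold change 2.34 against 3.41), and Gabre moved from 4.02 to 2.82.

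Ionotropic glutamate receptor genes were called lower in part. Of 18 genes, 1 was called higher and 5 lower (limma 0 and 6), and 12 were not called, with a median log2 fold change of -0.58 (-0.19 against FL alone), and the summed level was 544, 523 and 497 TPM in CBN against 789 to 1416 TPM in the lobules. Grin2c, the NMDA receptor subunit of mature granule cells, was at 27.2, 37.98 and 39.1 TPM against 70.9 to 161 TPM with a median of 132 (log2 fold change -1.67, SE 0.19, adjusted p = 1.3e-06, edgeR). Grik2, a kainate receptor subunit, and Gria1, an AMPA receptor subunit of Bergmann glia among other cells, had log2 fold changes of -1.56 (SE 0.17) and -1.62 (SE 0.17). The CBN libraries did not overlap the lobules for any of these 3 genes, nor for Grin1 (117, 119.9 and 109 TPM) and Gria2 (57.1, 53.1 and 50.3 TPM), the obligatory NMDA subunit and the main AMPA subunit, whose log2 fold changes of -0.75 (SE 0.067) and -0.85 (SE 0.072) stayed under the limit. CBN had the lowest mean of all 18 adult regions for Gria1, Gria2 and Grin1.

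Neurofilament genes of large axons were higher in CBN. Of 16 genes of neurofilaments and axonal transport, 6 were called higher and 0 lower (limma 6 and 1), with a median log2 fold change of 0.61. Against FL alone 2 were called higher and 0 lower, with a median of 0.27. Nefl, the light neurofilament chain (ENSMUSG00000022055.7, chr14:68083863-68089095), was at 1034, 1115 and 995 TPM in CBN. It was at 79.1 to 160.1 TPM in the vermal lobules and 212 to 735 TPM in FL, all below CBN (log2 fold change 2.89, SE 0.2, adjusted p = 7.36e-09, edgeR). Nefm, the medium chain, was at 1065, 1004 and 977 TPM, and only FL replicate 4, at 1008 TPM, reached the range of CBN (2.79, SE 0.22). The heavy chain Nefh was called higher as well.

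Sncg, γ-synuclein of projecting neurons, was at 113, 143 and 101 TPM in CBN against 1.31 to 72.5 TPM with a median of 9.901 (log2 fold change 3.24, SE 0.5, adjusted p = 3.06e-05, edgeR). Prph, the type III filament peripherin of brainstem motor and some monoamine neurons, was at 2.78, 16.1 and 8.47 TPM in CBN, with replicate 1 inside the lobule range and FL replicate 4 above all CBN libraries at 24.8 TPM (3.54, SE 0.97; 4.48 without FL replicate 4). Thy1, a surface protein of many projection neurons, was at 1029.5, 1014 and 942 TPM with a log2 fold change of 0.58 (SE 0.088), under the limit.

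Genes of the node of Ranvier and of fast firing were called at about the shares of all genes. Of 24 tested, 3 were called higher and 1 lower (limma 3 and 2), where 10.8% and 6.8% of all genes were. The median log2 fold change was 0.15 by edgeR and -0.11 by limma. In TPM, 9 were below every lobule library, where 21.2% of all genes were. The pacemaker channel Hcn2 was at 278, 368 and 379.9 TPM in CBN against 64.3 to 281 TPM with a median of 85.6, overlapping by FL replicate 4 alone (log2 fold change 1.92, SE 0.13, adjusted p = 5.31e-09, edgeR). Kcnab2, a potassium channel β subunit, was at 309, 293 and 266 TPM with no overlap (1.46, SE 0.11), and Scn4b, the sodium channel β4 subunit of resurgent current, was at 142, 141 and 132 TPM against 26.6 to 53.5 TPM in the vermis and 83.1 to 181 TPM in FL (1.5, SE 0.15). Scn2b, another sodium channel β subunit, was lower with no overlap (53.7, 58.1 and 55.5 TPM against 91.9 to 237 TPM with a median of 215, -1.55, SE 0.11). Parvalbumin (Pvalb), a calcium buffer of fast-firing neurons, Purkinje cells included, was at 520.4, 663 and 712 TPM, below every lobule library (749 to 1242 TPM with a median of 986) but with a log2 fold change of -0.49 (SE 0.14). Cplx1, the complexin of fast synapses, was at 1275, 1150.5 and 1066 TPM and had a log2 fold change of 0.83 (SE 0.1).

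Perineuronal nets are lattices of matrix around the cell body, and the large nuclear neurons carry dense ones. Of 15 net genes tested of 16, 6 were called higher and 1 lower (limma 3 and 1), with a median log2 fold change of 0.74. Against FL alone the median was 0.33, with 0 called higher and 1 lower. Acan, which encodes the core proteoglycan aggrecan, was at 11.4, 10.6 and 11.4 TPM in CBN. It was at 0.275 to 0.909 TPM in the vermal lobules and at 3.09 to 10.2 TPM in FL, still below every CBN library (log2 fold change 3.74, SE 0.27, adjusted p = 9.66e-09, edgeR). Hapln2, a link protein of nodes on myelinated axons, is listed with the myelin genes below. Crtac1, a cartilage acidic protein, was at 19.99, 22.7 and 13.8 TPM in CBN and overlapped the lobules (1.46 to 28.8 TPM with a median of 3.54, 1.90, SE 0.43). Bcan, brevican, was at 256, 260.2 and 269.9 TPM, above every lobule library (119.8 to 247 TPM with a median of 145), with a log2 fold change of 0.97 (SE 0.074) that lay just inside the limit and passed it without CBN replicate 1 (1.01). Tnc, tenascin-C of Bergmann glia, was the lower member, at 1.55, 1.204 and 1.89 TPM against 4.33 to 17.8 TPM with a median of 9.33 with no overlap (-2.41, SE 0.3).

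All 30 genes of myelin and oligodendrocytes were called higher in CBN, with a median log2 fold change of 2.27, where 10.8% of all genes were called higher; limma called 29. In TPM, 18 of the 30 were above every lobule library in every CBN library. Mbp, which encodes myelin basic protein, was at 5906, 10064 and 9315 TPM in CBN. The vermal lobules were at 643 to 1936 TPM and FL at 4624 to 6543 TPM, so that FL replicate 3 lay above CBN replicate 1 and all other lobule libraries lay below CBN (log2 fold change 2.44, SE 0.15, adjusted p = 3.32e-09, edgeR). The summed level of the list was 18200, 25060 and 24530 TPM in CBN, 12330 to 15680 TPM in FL and 2484 to 5425 TPM in the vermis. CBN replicate 1, the library with most choroid plexus RNA, was the lowest of the 3 in myelin.

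Enpp2, which encodes autotaxin and is made by oligodendrocytes and by choroid plexus, had the largest fold change of the list. It was at 2748, 813 and 1225 TPM in CBN, highest in replicate 1, against 33.5 to 582 TPM with a median of 64.8 (log2 fold change 3.94, SE 0.39, adjusted p = 2.62e-07, edgeR); without CBN replicate 1 the log2 fold change was 3.32. Anln, anillin, was at 49.4, 105 and 87.3 TPM against 6.24 to 56.5 TPM with a median of 10.01 (2.69, SE 0.18), Hapln2 at 87.4, 160.4 and 125 TPM against 7.503 to 87.8 TPM with a median of 19.9 (2.61, SE 0.16), and Ermn, ermin of the myelin sheath, at 101, 145 and 144 TPM against 10.2 to 83.8 TPM with a median of 17.6 (2.56, SE 0.15). CBN replicate 1 lay just inside the FL range for Anln and Hapln2, while Ermn did not overlap.

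Genes of oligodendrocyte precursors were mostly higher in CBN. Of 10 genes, 8 were called higher and 0 lower (limma 5 and 0), with a median log2 fold change of 1.27 (0.50 against FL alone, with 1 called each way). Enpp6, a marker of newly forming oligodendrocytes, was at 19.1, 25.8 and 37.04 TPM in CBN against 1.93 to 23.5 TPM with a median of 4.66 (log2 fold change 2.38, SE 0.18, adjusted p = 1.85e-08, edgeR), with FL replicate 2 above CBN replicate 1. Neu4 and Gpr17, further genes of this stage, were at 5.199, 7.99 and 7.57 TPM and 19.2, 23.2 and 22.1 TPM, with log2 fold changes of 1.69 (SE 0.14) and 1.37 (SE 0.15). C1ql1, which precursors share with climbing fiber neurons of the inferior olive, was at 17.1, 21.3 and 23.1 TPM in CBN, 2.03 to 7.21 TPM in the vermis and 22.2 to 122 TPM in FL. The FL mean was above CBN for this gene, with FL replicate 1 below CBN replicate 3, and its sign turned against FL alone (-1.73, adjusted p = 0.00369, edgeR) after 1.59 (SE 0.32) against all 4 lobules.

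Microglial genes lay near the 2-fold limit. Of 12 microglial genes, 10 were called higher and 0 lower, with a median log2 fold change of 1.08 (0.39 against FL alone, with 0 called). Limma, whose median over all genes was lower, called 2, and without CBN replicate 3 edgeR called 5. The lysosomal protease Ctss was at 47.8, 57.4 and 59.5 TPM in CBN against 16.6 to 49.1 TPM with a median of 21.1 (log2 fold change 1.34, SE 0.13, adjusted p = 2.44e-07, edgeR), and the chemokine receptor Cx3cr1 at 13.6, 12.5 and 13.6 TPM against 3.68 to 10.1 TPM with a median of 6.03 (1.18, SE 0.16). The complement gene C1qc (37.3, 36.9 and 47.3 TPM, 1.12, SE 0.15) was above every lobule library and was no longer called without CBN replicate 3 (0.98). Trem2, a lipid receptor of microglia, was at 10.3, 10.6 and 10.8 TPM (1.17, SE 0.17).

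Of 14 astrocyte genes, 3 were called higher and 0 lower (limma 2 and 0), where 10.8% and 6.8% of all genes were. The median log2 fold change was 0.59, and 0.28 against FL alone, where 1 was called higher. Slc6a11, the GABA transporter of astrocytes, was at 279, 247 and 227 TPM against 16.4 to 180.4 TPM with a median of 46.5, above every lobule library (log2 fold change 2.55, SE 0.36, adjusted p = 1.38e-05, edgeR). Slc7a10, an amino acid exchanger, was at 116, 98.04 and 98.9 TPM (1.26, SE 0.094), and Fgfr3, a growth factor receptor, at 106, 121 and 95.95 TPM (1.10, SE 0.097; not called at 0.97 without CBN replicate 2). The abundant S100b (486, 728 and 747 TPM, 0.48, SE 0.12) and the connexin Gja1 (232, 217 and 219 TPM, 0.61, SE 0.06) stayed under the limit. None of 14 endothelial and pericyte genes was called by edgeR, limma or DESeq2, although by edgeR 14 had an unadjusted p under 0.05 and a positive log2 fold change (median 0.54); Ly6c1, with the highest level, was at 144, 158 and 156 TPM against 84.8 to 139 TPM with a median of 114 (0.63, SE 0.079).

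**Figure D3:**
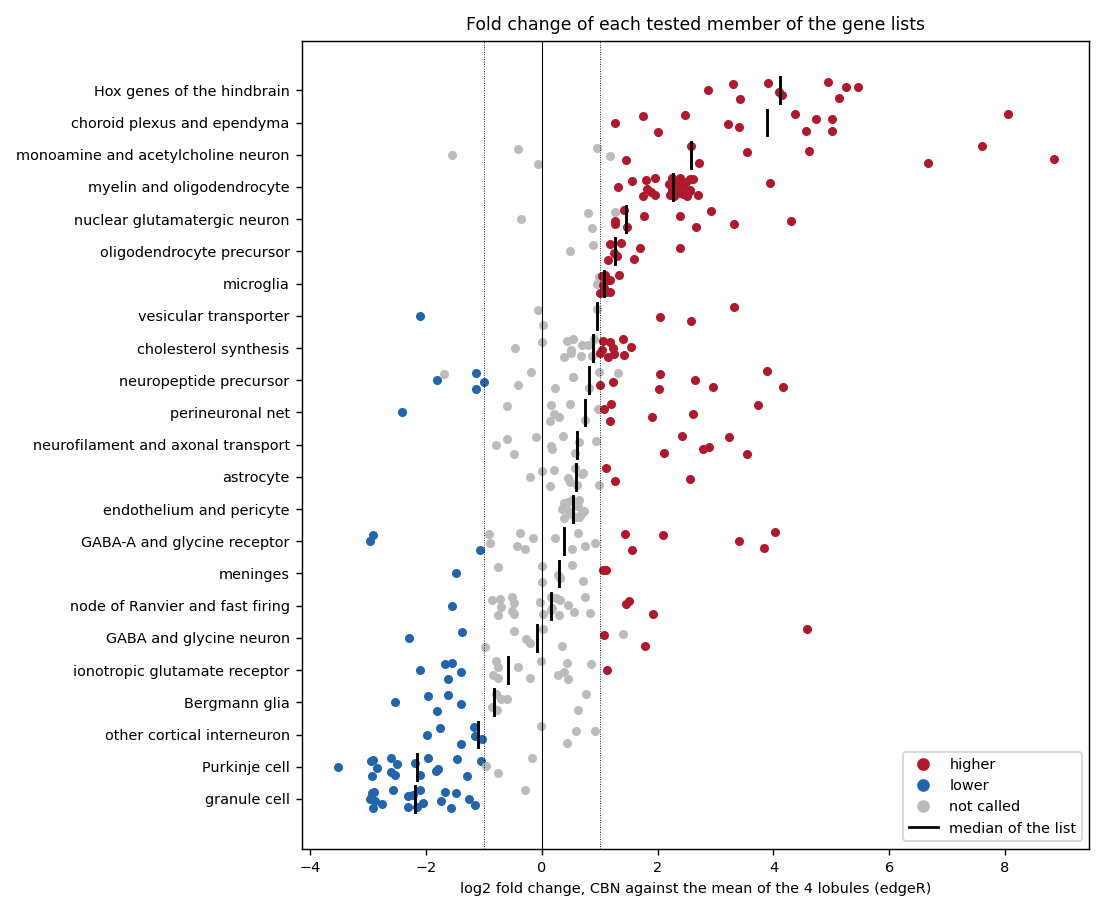
Log2 fold change of CBN against the 4 lobules by edgeR (x axis) for each tested member of 23 gene lists (y axis, ordered by median), red where called higher, blue where called lower and grey where not called, with a black line at the list's median and dotted lines at the 2-fold limit. All 30 myelin genes lie right of the limit, 19 of 20 granule cell and 17 of 20 Purkinje cell genes lie left of it, and the lists of GABA neurons and of receptors spread to both sides.

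The genes lower in CBN were led by those of granule cells and Purkinje cells. Of 20 granule cell genes, 19 were called lower, where 6.8% of all genes were, and 0 higher, with a median log2 fold change of -2.19, and 17 were below every lobule library. Cbln3, a cerebellin of granule cells, was at 40.4, 65.2 and 93.8 TPM against 260 to 773 TPM with a median of 660.3 (log2 fold change -2.90, SE 0.25, adjusted p = 6.26e-08, edgeR), and Crtam, a cell adhesion molecule, at 6.76, 10.5 and 16.3 TPM against 40.1 to 148 TPM with a median of 103 (-2.94, SE 0.27). Kcnk9, a potassium leak channel, was the member not called (13.7, 17.01 and 10.5 TPM, -0.29, SE 0.19). The summed level was 920, 1094 and 1429 TPM in CBN and 3137 to 7512 TPM in the lobules, so that granule cell RNA was present in every CBN library, most in replicate 3.

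Of 20 Purkinje cell genes, 17 were called lower and 0 higher (limma 18 and 0), with a median log2 fold change of -2.15, and 19 were below every lobule library. Calb1, the calcium buffer calbindin, was at 52.5, 86.7 and 126 TPM in CBN. It ran from 401 through a median of 607 to 1094 TPM in the lobules, with no overlap (log2 fold change -2.93, SE 0.23, adjusted p = 2.2e-08, edgeR). Itpka, an inositol trisphosphate kinase, was at 1.71, 7.36 and 7.46 TPM against 20.2 to 74.8 TPM with a median of 48.4 (-2.95, SE 0.3), and Ppp1r17, the G-substrate of Purkinje cells, at 14.8, 16.6 and 24.9 TPM against 72.2 to 233 TPM with a median of 165 (-2.92, SE 0.2).

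Aldoc, the aldolase that marks alternating zones of Purkinje cells and is also made by astrocytes, did not follow the list. It was at 2204, 2127 and 2133 TPM in CBN, above every CENT2 library, where the mean was 1751 TPM, and below UVU at 4347 TPM, and its log2 fold change was -0.17 (SE 0.1). Dner, a Notch ligand of Purkinje cells, was below every lobule library at 148, 168 and 159.8 TPM but not 2-fold lower (-0.76, SE 0.093). The summed level of the list was 3430, 3429 and 3936 TPM in CBN, to which Aldoc added much, and 5608 to 12430 TPM in the lobules.

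Among 10 genes of the other cortical interneurons, 6 were called lower and 0 higher, with a median log2 fold change of -1.10. Eomes, a T-box factor of unipolar brush cells, was at 4.57, 3.15 and 5.08 TPM in CBN and at 8.14 to 48.1 TPM with a median of 15.2 in the lobules, highest in UVU, with no overlap (log2 fold change -1.99, SE 0.27, adjusted p = 9.83e-06, edgeR). Lypd6, a modulator of nicotinic receptors, was at 3.76, 5.48 and 3.804 TPM (-1.76, SE 0.15), the transcription factor Tfap2b at 6.52, 7.97 and 8.84 TPM (-1.39, SE 0.16) and Grm2, a glutamate receptor of Golgi cells, at 5.61, 8.76 and 4.58 TPM (-1.18, SE 0.11), and all 3 were below every lobule library. Of 12 Bergmann glia genes, 5 were called lower and 0 higher (limma 7 and 0), with a median log2 fold change of -0.83. Gdf10, a growth factor of these glia, was at 19.7, 8.499 and 26.0 TPM against 47.9 to 189 TPM with a median of 112 (log2 fold change -2.53, SE 0.3, adjusted p = 1.64e-06, edgeR), and Slc1a3, their glutamate transporter, at 115, 116 and 128 TPM against 234 to 738 TPM with a median of 568 (-1.97, SE 0.13). Wif1, an inhibitor of Wnt ligands, was under 1 TPM in CBN (0.86, 0.215 and 0.547 TPM) and overlapped the lobules (-1.82, SE 0.42; -2.35 without CBN replicate 1).

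The 12 largest fold changes upward, among called genes that did not overlap and had a mean of at least 5 TPM, were led by Ttr. Ttr, the transthyretin of choroid plexus, was at 12242, 3438 and 5225 TPM in CBN and ran from 0.097 through 2.85 to 2961 TPM in the lobules (log2 fold change 8.05, SE 1.1, adjusted p = 9.8e-06, edgeR); its mean in CBN was 13.8 times that of the lobules. Every CBN library was above every lobule library, but UVU replicate 1 (2029 TPM) and FL replicates 1 and 2 (1734 and 2961 TPM) also held much. Kcne2, F5, Kl, Kcnj13, Cldn1 and Car12, of which Kl and Kcnj13 are on the choroid plexus list, followed the same order of CBN libraries, each highest in CBN replicate 1, with log2 fold changes of 5.86, 5.02, 4.73, 4.37, 4.36 and 4.12, and of 5.04, 3.98, 3.78, 3.40, 3.74 and 3.26 without that library. Kcne2 and Kcnj13 are potassium channel genes, F5 encodes coagulation factor V, Kl klotho, Cldn1 a claudin of tight junctions and Car12 a carbonic anhydrase.

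All 12 choroid plexus and ependyma genes were called higher by edgeR, 9 by limma, and 9 by edgeR without CBN replicate 1. The summed level was 13070, 3614 and 5556 TPM in CBN, 18.1 to 24.1 TPM in CUL4,5, 152 to 560.4 TPM in CENT2, 65.5 to 2235 TPM in UVU and 119 to 3164 TPM in FL. Aqp1, the water channel of choroid plexus, was at 28.2, 6.47 and 11.6 TPM in CBN and at 0.045 to 6.98 TPM with a median of 0.103 in the lobules (5.01, SE 0.72), and Sostdc1, a secreted antagonist of BMP and Wnt signals, at 57.99, 10.5 and 21.5 TPM (5.01, SE 0.85; 6.43 without UVU replicate 1). Ccdc153, a gene of ciliated cells, was at 86.03, 16.2 and 39.1 TPM in CBN, in the same order as Ttr, but at 328, 343, 87.7 and 139 TPM in CENT2. No median is given for this list or the next, because members at 0 in a whole lobule group have no bounded fold change.

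Noradrenergic neuron genes came from part of the CBN libraries. Dbh, which makes noradrenaline, was at 2.32, 114 and 57.5 TPM. In the lobules it was at 0 to 7.34 TPM with a median of 0.046, the highest in CENT2 replicate 1. CBN replicates 2 and 3 were far above every lobule library and replicate 1 was not; the mean TPM was 61.1 times that of the lobules, and Dbh was called higher also without CBN replicate 2 (adjusted p = 1.76e-05, edgeR). Slc6a2, the noradrenaline transporter, was at 1.69, 50.8 and 26.4 TPM against 0 to 1.37 TPM with a median of 0.05 (log2 fold change 7.60, SE 0.69, adjusted p = 1.05e-07, edgeR), with 6.70 without CBN replicate 2. Slc18a2, which loads monoamines into vesicles, had the same order and a log2 fold change of 2.57 (SE 0.49), 1.74 without CBN replicate 2, and Th, the enzyme at the head of catecholamine synthesis, was at 4.38, 66.7 and 31.6 TPM, with the highest lobule library, UVU replicate 1, at 44.05 TPM.

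Of 13 monoamine and acetylcholine neuron genes tested, 8 were called higher and 0 lower (limma 6 and 0), with 7 higher without CBN replicate 2. Isl1, a factor of motor and other neurons, was called but was at 0, 1.397 and 0.664 TPM, below FL replicate 4 at 1.66 TPM. The serotonin genes Tph2 (0.617, 0.693 and 0.709 TPM) and Slc6a4 (0.042, 0.203 and 0.197 TPM) and the acetylcholine transporter gene Slc18a3 (0.338, 0.548 and 0.204 TPM) were at or below 1 TPM in CBN. The summed level of the list was 33.5, 340.3 and 174 TPM in CBN and 9.17 to 401 TPM in the lobules, the highest in CENT2 replicate 1.

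Hox genes, which are active in the hindbrain behind the cerebellum and are not cerebellar markers, were found in CBN and FL. The summed level of 14 Hox genes was 68.3, 14.3 and 8.07 TPM in CBN, 9.12 to 21.6 TPM in FL, 29.3 TPM in UVU replicate 1 and at most 1.596 TPM in the other vermal libraries. Of these, 10 passed the filter on low counts, in part through the libraries where they are high, and all of those were called higher, 7 by limma and 6 by edgeR without CBN replicate 1. Hoxd3 was at 7.63, 2.102 and 0.426 TPM and Hoxa2 at 6.62, 2.07 and 1.07 TPM, both overlapping FL. Meningeal genes gave 2 calls higher and 1 lower of 10 (limma 0 and 1), where 10.8% and 6.8% of all genes were. The 2 higher, Igf2 (221, 68.9 and 120.5 TPM, 1.11, SE 0.32) and Lum (7.74, 2.16 and 4.305 TPM, 1.06, SE 0.28), a growth factor and a matrix proteoglycan, were not called without CBN replicate 1 (log2 fold changes 0.50 and 0.55). The lower one was the organic anion transporter Slc22a6 (1.48, 0.612 and 0.973 TPM, -1.49, SE 0.42). What part the choroid plexus, noradrenergic, Hox and meningeal RNA had in other results was not tested.

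**Figure D4:**
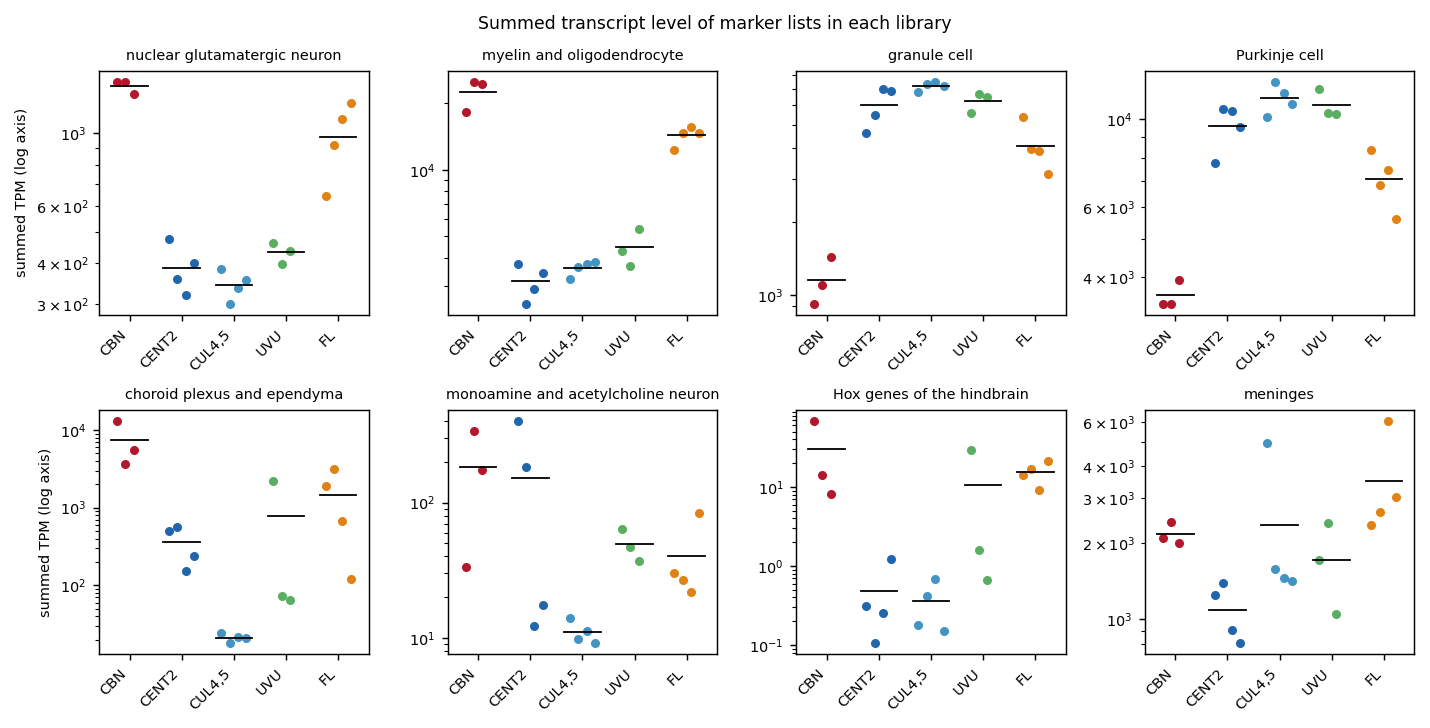
Summed TPM of 8 marker lists on a log axis in each library of CBN and the 4 lobules, 1 point a library in order of replicate with a black bar at the group mean. Nuclear neuron and myelin lists are highest and granule and Purkinje lists lowest in CBN, with FL between; the 3 CBN libraries spread widely for choroid plexus (3614 to 13070), monoamine neurons (33.5 to 340.3) and Hox genes (8.07 to 68.3).

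Dmbx1 and Hsd17b14, also among the 12 largest upward changes, did not share the order of Ttr. Dmbx1, a homeobox factor of midbrain and hindbrain, was at 7.11, 6.303 and 5.68 TPM in CBN, nearly equal in the 3 libraries. It did not exceed 0.442 TPM in any lobule library, where the median was 0.063 TPM (log2 fold change 6.48, SE 0.45, adjusted p = 8.04e-09, edgeR). Its mean TPM was 61.2 times that of the lobules. At 6.36 TPM, the CBN mean was close to those of 2 hindbrain regions, the dorsal-vagal complex (7.54 TPM) and the nucleus of the solitary tract (6.66 TPM). In a further hindbrain region, the parabrachial nucleus, it was 0.501 TPM. What part hindbrain RNA had in the level of Dmbx1 in CBN was not tested. Hsd17b14, a steroid dehydrogenase, was at 9.59, 19.3 and 9.68 TPM, highest in replicate 2, against 0.098 to 6.41 TPM with a median of 0.497 (4.37, SE 0.29). The largest downward changes included granule and Purkinje cell genes given above, and Slc5a1, a sodium-glucose transporter, Alpk2, an alpha-kinase, Mrln, a small protein that regulates the calcium pump, and Pkp3, a plakophilin, none of which is in a list. They were at 0.357, 0.576 and 0.791 TPM, 2.297, 3.16 and 2.9 TPM, 4.05, 1.43 and 1.73 TPM and 2.15, 3.01 and 2.23 TPM in CBN, below every lobule library, with log2 fold changes of -3.10 (SE 0.24), -2.98 (SE 0.19), -2.96 (SE 0.28) and -2.96 (SE 0.24).

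Neuropeptide precursors split by gene. Of 21 tested of 24, 8 were called higher and 4 lower (limma 4 and 4), and 4 were higher without CBN replicate 2. The median log2 fold change was 0.81, while the summed TPM was lower in CBN (1342, 1416 and 1286 against 1551 to 1995). Gal, galanin, was at 2.22, 37.7 and 17.3 TPM, with the order of the noradrenergic genes, against 0.231 to 4.14 TPM with a median of 0.86 (log2 fold change 4.17, SE 0.54, adjusted p = 4.94e-06, edgeR; 3.21 without CBN replicate 2). Crh, the stress peptide that inferior olive neurons also make, was at 8.88, 8.67 and 2 TPM (3.88, SE 0.69), and Nts, neurotensin, at 15.1, 9.61 and 6.66 TPM (2.65, SE 0.42). Both overlapped the lobules, and no precursor tested was above every lobule library in every CBN library. Calca, which encodes calcitonin gene-related peptide, was at 2.22, 21.3 and 11.9 TPM in CBN and 10.4 to 40.7 TPM in FL (2.96, SE 0.52 against the 4 lobules and -0.50 against FL alone). The granins Scg2 (0.53, SE 0.21) and Scg3 (-0.19, SE 0.072), of dense-core vesicles, were not called. Called lower were Penk, Npy, Cck and Chgb.

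Genes of cholesterol synthesis, a pathway that myelin-forming cells use heavily, were higher in part. Of 22, 10 were called higher and 0 lower (limma 5 and 0), the median log2 fold change was 0.88, and 12 were above every lobule library. Msmo1, Hmgcs1 and Nsdhl, enzymes of the pathway, were at 119, 143 and 133 TPM, 213, 258 and 234 TPM and 30.1, 30.1 and 30.2 TPM, each with no overlap, and had log2 fold changes of 1.41 (SE 0.12), 1.40 (SE 0.12) and 1.25 (SE 0.15), with adjusted p of 4.71e-08, 5.89e-08 and 1.71e-06 by edgeR. Srebf2, the factor that drives the pathway, was not called (73.1, 73.9 and 70.5 TPM, 0.54, SE 0.088). Against FL alone edgeR called none of the 22, although 20 had an unadjusted p under 0.05, and the median was 0.46.

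The study's own list of obesity-associated genes was spread around 0. Of 190 genes, 181 were tested, and 22 were called higher and 13 lower in CBN (limma 9 and 16), with a median log2 fold change of 0.03 (-0.16 by limma); over all genes 10.8% were called higher and 6.8% lower.

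The lobules were not alike as references, since FL lay between CBN and the vermis. Against CENT2, CUL4,5 and UVU alone, in that order, 1563 (9.59%), 2434 (14.9%) and 2160 (13.2%) genes were called higher and 1250 (7.67%), 1492 (9.15%) and 1355 (8.31%) lower. Against FL alone the counts were 428 (2.63%) higher and 634 (3.89%) lower. These 4 comparisons share the CBN libraries. Of the 14 nuclear glutamate neuron genes, 8, 11 and 10 were called higher against the vermal lobules and 1 against FL, with medians of 1.64, 2.06, 2.62 and 0.74. Of the 30 myelin genes, all were called higher against each vermal lobule and 1 against FL, where the median was 0.73. Of granule cell genes, 18 of 20 were called lower against FL (median -1.93) and of Purkinje cell genes 15 of 20 (median -1.60). Among 12 microglial genes 0 were called against FL (median 0.39), although 5 had an unadjusted p under 0.05 by edgeR. Perineuronal net genes gave 0 calls higher and 1 lower of 15 (median 0.33). Neurofilament and axonal transport genes gave 2 calls higher and 0 lower of 16 (median 0.27). Precursor genes gave 1 call each way of 10 (median 0.50), and 1 of 14 astrocyte genes was called higher (median 0.28).

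To see which differences also hold against the rest of the brain, CBN was compared with the 13 adult regions outside the cerebellum, weighted equally on the log scale. Of 17732 genes tested, 1678 (9.46%) were called higher and 945 (5.33%) lower. Spp1, Nefl and Mbp were higher in CBN than in those regions as well, with log2 fold changes of 4.38, 1.85 and 2.06, and for all 3 CBN had the highest mean of the 18 adult regions. All 30 myelin genes were called higher. Acan (2.20), Glra1 (2.4) and Slc6a5 (5.74) were called higher too, though the nucleus of the solitary tract (NTS) had the higher mean for Glra1 (188 TPM against 57.8 in CBN) and Slc6a5 (147 TPM against 38.1).

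Slc17a6 ranked 9 of the 18 adult regions in mean TPM, and its log2 fold change against the regions outside was 1.14 (adjusted p = 0.0128, edgeR, and 0.0728 without CBN replicate 1). Its mean was 101 TPM in CBN and ran outside from 3.81 TPM in the nucleus accumbens to 190 TPM in the dorsomedial hypothalamus. Regions with low means pull the log-scale mean down, so 1.14 is not a ratio to the average TPM of those regions. Dbh had a higher mean in the parabrachial nucleus (PB, 115 TPM) than in CBN (57.8 TPM), and Ttr was highest in CBN. Genes of granule cells, low in CBN beside the lobules, were high beside the rest of the brain: 16 of 20 were called higher, Gabra6 with a log2 fold change of 9.04. Of Purkinje cell genes 7 of 20 were, though not Calb1 (-0.21), which other regions also express. Parvalbumin was higher by 3.86 on the log2 scale. No microglial gene of 12 was called either way against the regions outside by edgeR, limma or DESeq2, although 6 had an unadjusted p under 0.05 by edgeR.

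A comparison with 3 hindbrain regions alone, PB, NTS and the dorsal-vagal complex (DVC), was chosen after seeing the data, and it shares the CBN libraries with those above. In it 886 genes (5%) were called higher in CBN and 468 (2.64%) lower. Of the 30 myelin genes, 1 was called higher, with a median log2 fold change of 0.52, and Mbp, with means of 8428 TPM in CBN and 7082 TPM in NTS, was not called (0.54, adjusted p = 0.041, edgeR). Nefl (0.59) and Acan (0.51) were not called either, whereas Spp1 was called higher (1.73). Slc17a6 (-0.25), Glra1 (-1.17) and Slc6a5 (-0.53) had the opposite sign to that against all 13 regions, and of these Glra1 was called lower (adjusted p = 0.0124, edgeR). Of the 20 granule cell genes 17 were called higher, and all 12 choroid plexus and ependyma genes were.

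**Figure D5:**
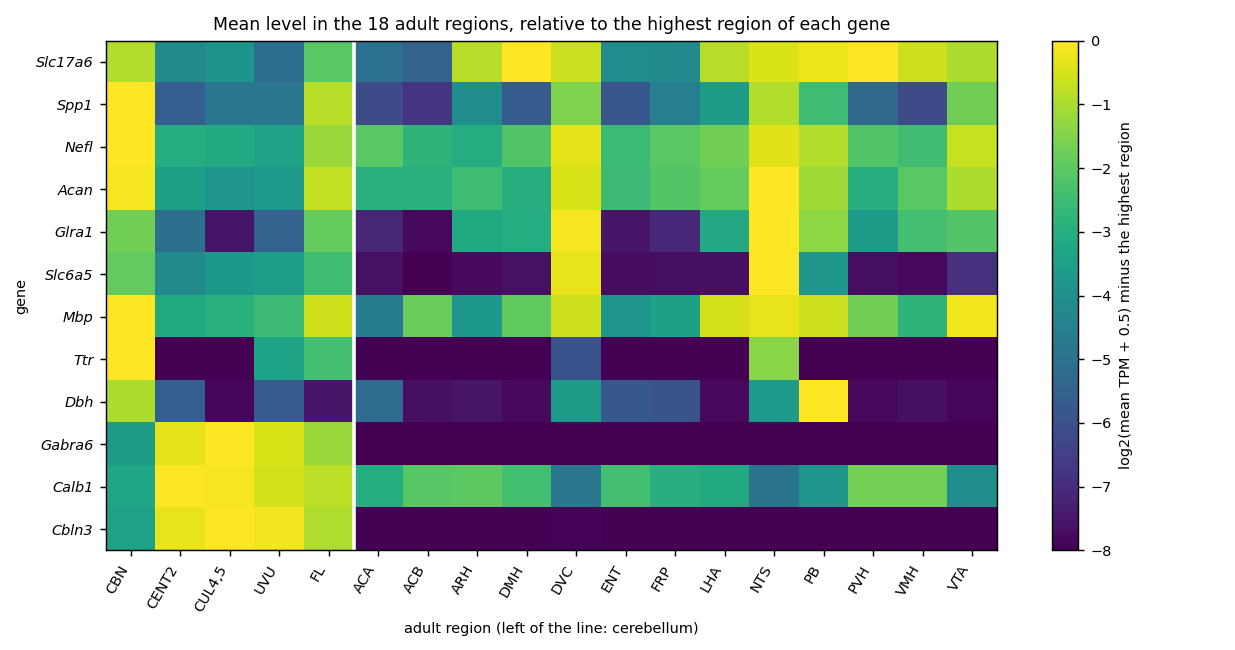
Mean level of 12 genes (rows) in the 18 adult regions (columns, cerebellar regions left of the white line), as log2(mean TPM + 0.5) minus the value of the highest region of that gene, with values below -8 drawn as -8. Spp1, Nefl, Mbp and Ttr are highest in CBN, Glra1 and Slc6a5 in NTS and Dbh in PB, and Gabra6 and Cbln3 are at or near the bottom of the scale in every column outside the cerebellum.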

How the data were processed

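RNA from frozen punches was made into strand-specific mRNA libraries and sequenced as single reads. Base calls were made with CASAVA 1.8.2, and the authors quantified transcripts with kallisto on GRCm38, per the labels and the study's methods; the annotation release is not given in the sources used here. The deposited tables hold estimated counts per transcript, which the authors did not normalize, and TPM per gene, which the authors scaled to transcript length and library. Estimated counts were summed per gene through GENCODE vM21 (98.8% of 109282 transcripts matched) and rounded; for 373 genes, summed transcripts differ from the gene's TPM by over 1%, so their counts are incomplete.

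Counts were tested with edgeR 4.0.16 in R 4.3.3 (filterByExpr, TMM, quasi-likelihood), with a group for each region. The contrast set CBN against the equally weighted mean of the 4 lobules on the log scale. P-values were adjusted by Benjamini-Hochberg. On data simulated for CBN against the lobules, with 15862 genes tested, 194 of 195 tested changed genes were called and 1 unchanged gene. The simulation gave every gene the same spread between libraries and all 4 lobules the same means. It held no RNA from outside a region. The real libraries differ in each of these, so its error rate cannot be taken as that of the calls reported here. Alternatives used DESeq2 1.42.0, limma 3.58.1 on log2(TPM + 0.5) or log2(TPM + 0.1) with a filter of 1 TPM or none, other scalings, other lobules, blocks and left-out libraries. Levels are TPM; fold changes are from counts.

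The named genes are Slc17a6, Mbp, the 12 largest changes each way among called genes that do not overlap in TPM and have a mean of at least 5 TPM in the higher group, and in each list up to 4 called members with the largest change and up to 2 abundant members not called; Nefh, Th, Ccdc153, Lhx2, Lhx9 and the lower neuropeptides were named after their values were seen. Some genes that this rule selects are not reported here. The members, lists and tests were chosen with earlier results of these data known. Columns of other regions were used for the comparison outside the cerebellum, and embryonic and stem cell libraries were not used here.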

Additional observations from a re-analysis of the deposited data

Results flagged for a closer look

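Of 144 groups of 4 libraries checked for 1 library far from the others by Dixon's ratio at the 95% level, 8 stood apart; chance gives about 1 in 20. In CENT2, replicate 1 was highest for Slc6a2 (1.37 TPM, others up to 0.0395) and Cldn1 (0.68 TPM, others up to 0.0781). In CUL4,5, replicate 1 was highest for Kcnj13 (4.37 TPM, others up to 1.32), Spp1 (22.5 TPM, others up to 10.6) and the summed meningeal genes (4944 TPM, others up to 1572), and replicate 3 for Pkp3 (21.4 TPM, others up to 14.3). In FL, replicate 4 was highest for the summed monoamine and acetylcholine neuron genes (83.13 TPM, others up to 30.05) and replicate 1 for the summed GABA-A and glycine receptor genes (1499 TPM, others up to 1233).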

How the results depend on the processing

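The counts of genes higher and lower than the lobules, 1765 and 1109 by edgeR, became 1774 and 1095 by DESeq2, 1582 to 1921 and 1056 to 1184 with any 1 library left out, 1800 and 1144 with the replicate block, and 1832 and 1110 with the serial-number runs as a block. Chosen after seeing the data, a fit without CENT2 replicates 1 and 2 gave 2072 and 1105. Limma gave 946 higher at a pseudocount of 0.5, 1098 at 0.1 and 969 with no filter, against 1314, 1570 and 1288 lower, and FL alone as the reference gave 428 higher and 634 lower. Of all calls, 61.4% were higher by edgeR, 41.9%, 41.2% and 42.9% by those 3 limma fits, 52.7% with the lobules as 1 group and 40.3% against FL. The causes were not tested.

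For genes higher in CBN than in adult regions outside the cerebellum, limma called 943 beside 1678 by edgeR, the replicate block 1646, fits without 1 CBN library 1394 to 1677, and a fit without the VTA replicate 1, also chosen after seeing the data, 1676. Slc17a6 was not called there by DESeq2. With PB, NTS and DVC alone as the reference, also chosen after seeing the data, 886 were higher and 468 lower, and 4 signs turned: Slc17a6 -0.25, Glra1 -1.17, Slc6a5 -0.53 and Calb1 1.55.

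Replicate numbers are shared across regions but the labels do not say that they pair samples, nor which pools shared mice. Same-numbered libraries had a median correlation of deviations of 0.031 over 33 pairs, 10 of them over 0.1. A block on these numbers therefore cannot stand for the sharing of mice. The block ended 1 call among the named genes, that of Igf2.

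Signs turned for genes near 0 or high in 1 lobule. Irx3 was -0.34 against UVU, and Aldoc 0.44 against CENT2 and 0.05 against CUL4,5; against FL, Gad1 was 0.09, C1ql1 -1.73 and Calca -0.50; C1ql1 was -0.01 with the lobules as 1 group. Calb1 against the regions outside ran from -0.49 to 0.02 with 1 CBN library left out. With 3 CBN pools, no estimate of the spread between animals is possible.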

Other observations

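The study's obesity-associated genes were counted as a whole above; the following were picked after their values were seen, as the members with the largest changes. Calcr, the calcitonin receptor, had a mean of 3.11 TPM in CBN and 0.544 TPM in the lobules (log2 fold change 4.09, SE 0.64, adjusted p = 3.76e-05, edgeR). Sema3b, a secreted guidance cue, had 18.1 and 3.63 TPM (2.85), and Stxbp6, a regulator of vesicle fusion, 33.0 and 7.74 TPM (2.58). The largest change downward was that of Sbk1, a kinase, with means of 59.8 TPM in CBN and 274 TPM in the lobules (-1.98).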
